A study of Mus musculus with 5 samples.

Results

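The genes described here are Gphn, Gad1, Gad2, Slc32a1 and Nlgn2, 5 genes of the inhibitory synapse among the 34614 protein-coding and lncRNA genes of the RefSeq table, measured in mouse sperm by whole-genome bisulfite sequencing. Gphn was chosen by the old-minus-young difference in methylation of a 1000-bp tile (chromosome 12, 78351001 to 78352000) in these same libraries, and the other 4 were added for their function. Every age difference in Gphn is therefore given as a description, with no test. Each gene was read over its RefSeq span on mm10 (GRCm38) with 1000 bp either side.

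Sperm of C57BL/6 mice were released by swim-out from the cauda epididymis, the storage part of the duct. Young libraries were from mice aged 2 months (young 1, 2 and 3) and old libraries from mice aged 18 months (old 1 and 2), with no other treatment or allele in the labels. Nothing in the labels ties a library to its own animal. The p-values therefore reflect spread among these 5 libraries alone, and that spread may be technical. The data are reads per CpG cytosine and the percent of them that were methylated.

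Gephyrin, encoded by Gphn, forms the scaffold under inhibitory synapses that anchors glycine and GABA-A receptors opposite the releasing terminal. It also carries out the last steps of molybdenum cofactor synthesis, a function found in many tissues. GABA is made from glutamate by the decarboxylases of Gad1 and Gad2 and loaded into synaptic vesicles by the transporter of Slc32a1. Nlgn2 encodes neuroligin 2, an adhesion protein of inhibitory synapses that binds gephyrin. In sperm most of the genome is heavily methylated, while promoters rich in CpGs usually carry little methylation.

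How much of each gene could be read differed widely. Common CpGs, those listed with at least 5 reads in all 5 libraries, numbered 649 of 1784 CpGs listed in any library for Gphn (chromosome 12, 78217325 to 78684772). For Gad2 (chromosome 2, 22621015 to 22693877) they numbered 58 of 357, for Nlgn2 (chromosome 11, 69823123 to 69837784) 10 of 104, and for Gad1 (chromosome 2, 70561303 to 70602014) 6 of 314. Slc32a1 (chromosome 2, 158607260 to 158615747) had 91 listed CpGs and none common to all 5 libraries. Tiles of 1000 bp with at least 3 common CpGs numbered 89 in Gphn, 6 in Gad2, 1 in Gad1, 1 in Nlgn2 and 0 in Slc32a1, so nearly every tile value is of Gphn.

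Depth over the whole series was 67774094 to 97769462 reads on listed cytosines per library, and the 2255866 common CpGs had a median of 11 to 16 reads. As a check of the label, gene ends of 10 germline genes and of 13 maternally imprinted loci were read, both taken as unmethylated in sperm. The germline ends averaged 38.6% to 54.2% across libraries and the imprinted ones 26.0% to 45.5%, with a single gene of each list under 10%. Neither list thus read as unmethylated. Ends of 9 housekeeping genes averaged 25.7% to 35.6%, with 4 of them under 10%. Those of 8 leukocyte genes averaged 78.3% to 89.8% and of 8 epididymal genes 60.5% to 87.8%. These are the less methylated measured end of each gene, over CpGs that differ between libraries, so they are not known promoters or control regions and do not decide the label. Their part in the values below was not tested.

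At the 5 RefSeq starts, within 1000 bp either side, not a single methylated read was seen in any library that listed a CpG there. The start is that of 1 RefSeq promoter entry per gene. It lies inside the span given above in Gphn, at 78226655, and in Slc32a1, at 158610758. The promoters of the gephyrin scaffold gene, of the GABA-making enzyme Gad2 and of the vesicle transporter Slc32a1 are printed here (RefSeq, GRCm38.p6, 250 bases before the start to 50 after, 5′ to 3′) with every CG dinucleotide in capitals, to show how CpG-rich each is. They lie at chr12:78226405-78226704, chr2:22622077-22622376 and chr2:158610508-158610807, all on the plus strand.
Gphn: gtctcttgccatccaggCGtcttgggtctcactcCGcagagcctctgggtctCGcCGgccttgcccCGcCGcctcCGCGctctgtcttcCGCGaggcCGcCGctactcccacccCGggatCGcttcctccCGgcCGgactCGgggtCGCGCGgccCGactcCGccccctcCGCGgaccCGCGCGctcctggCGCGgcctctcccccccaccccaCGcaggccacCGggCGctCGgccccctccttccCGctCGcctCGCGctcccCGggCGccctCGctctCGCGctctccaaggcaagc
Gad2: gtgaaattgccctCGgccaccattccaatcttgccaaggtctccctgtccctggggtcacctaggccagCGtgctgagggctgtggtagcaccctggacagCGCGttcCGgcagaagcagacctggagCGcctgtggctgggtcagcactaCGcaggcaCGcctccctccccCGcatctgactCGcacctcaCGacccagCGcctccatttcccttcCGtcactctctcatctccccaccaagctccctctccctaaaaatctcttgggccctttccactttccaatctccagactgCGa
Slc32a1: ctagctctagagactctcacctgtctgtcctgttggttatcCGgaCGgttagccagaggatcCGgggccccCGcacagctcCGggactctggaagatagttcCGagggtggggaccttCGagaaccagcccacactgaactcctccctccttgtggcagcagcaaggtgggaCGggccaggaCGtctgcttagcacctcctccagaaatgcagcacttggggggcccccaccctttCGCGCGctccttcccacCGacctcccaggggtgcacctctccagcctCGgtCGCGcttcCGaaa

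The Gphn promoter holds 42 CG dinucleotides in its 300 bases, and 2.93% of 27025 RefSeq promoters of that length hold as many or more. The promoters of Nlgn2, Gad1, Slc32a1 and Gad2 hold 26, 21, 17 and 14. None of the 42 CpGs of the Gphn promoter was listed in any library, and the same held for the 26 of Nlgn2. In Gad1 1 CpG, in Slc32a1 5 and in Gad2 8 were listed in at least 1 library. CpG-rich promoters were thinly read across the genome: 7.86% of CpGs were listed in promoters with at least 30 CG dinucleotides, and 47.3% in those with at most 9.

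Within 1000 bp of the Gphn start 5 CpGs were listed, with 10 reads in young 1 and 15 in old 2, all unmethylated, and with none in the other 3 libraries. A count of 0 in 25 reads allows a level of up to 12%, if reads summed over CpGs are taken as independent. At Slc32a1 the unmethylated reads numbered 102 in young 1, 30 in young 3, 11 in old 1 and 47 in old 2, and 0 of 190 allows up to 1.58%. At Gad2 they numbered 10, 15 and 65 in young 1, 2 and 3 and 6 and 10 in old 1 and 2, and 0 of 106 allows up to 2.83%. It was the only one of the 5 starts with reads in every library.
At Gad1 they numbered 31 and 10 in young 1 and 2 and 5 and 30 in old 1 and 2, and 0 of 76 allows up to 3.95%. At Nlgn2 all 127 reads were from the old libraries, 99 in old 1 and 28 in old 2, which allows up to 2.36% in old sperm and says nothing of young sperm. These limits (3 counts of the total) cover counting error only, and they are too low where 1 molecule was counted at several CpGs. Across the genome 20.7% of 24309 starts with at least 20 reads were under 10%, and 2.87% had no methylated read. The share under 10% was 30.8%, 49.5% and 56.9% in promoters with 10 to 19, 20 to 29 and at least 30 CG dinucleotides, the classes that hold these 5 genes. Age was not compared at the 5 starts, since Nlgn2 had no reads in young sperm there and only Gad2 had reads in every library.

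**Figure D1:**
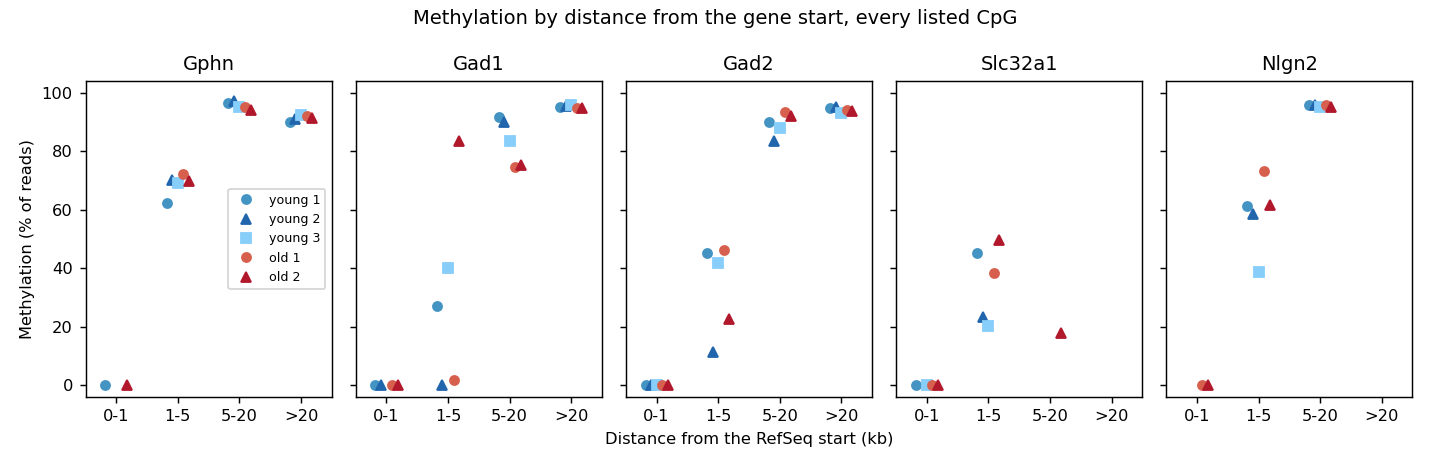
Methylation (percent of reads) by distance from the RefSeq start in kb, at every CpG a library lists, for the 5 genes; each point is a library, and a missing point means no listed CpG. All points within 1 kb lie at 0, and in Gphn, Gad1 and Gad2 those beyond 20 kb lie between 89.9% and 95.7%.

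Beyond 5 kb from the start, pooled methylation of Gphn, Gad1, Gad2 and Nlgn2 was higher than nearer to it, as the plot by distance shows. Distances were counted to either side of the start, before and after it together. Between 1 and 5 kb from the start Gphn was at 62.4% to 72.1% across the 5 libraries, on 73 to 140 reads. Nlgn2 was at 38.6% to 73.3% there, Slc32a1 at 20.2% to 49.6%, Gad2 at 11.2% to 46.3% and Gad1 at 0% to 83.3%, the last on as few as 5 reads. The ages overlapped there in Gphn, Gad1, Gad2 and Slc32a1. In Nlgn2 both old libraries (73.3% and 61.5%) lay above the young ones (61.1%, 58.6% and 38.6%), on 18 to 86 reads. Old 2 and young 1 were nearly equal, with 32 of 52 and 11 of 18 reads methylated. Each library lists other CpGs in this zone, so its spread mixes place with level. From 5 to 20 kb Gphn had reached 94.1% to 97.0% and Nlgn2 95.03% to 95.9%, while Gad2 and Gad1 were lower. Gad1 was at 91.7%, 89.9% and 83.4% in young 1, 2 and 3 there and at 74.6% and 75.4% in old 1 and 2, on 129 to 382 reads, with old below young. Gad2 was at 90.2%, 83.6% and 88.1% in young 1, 2 and 3 and at 93.4% and 92.2% in old 1 and 2, on 110 to 243 reads, with old above young. Both are read over CpGs that differ between libraries and were not tested.

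The whole-gene values over every listed CpG cover other CpGs in each library. Nlgn2 was at 94.9%, 92.4% and 90.6% in young 1, 2 and 3 and at 82.4% and 88.0% in old 1 and 2. The ages do not overlap there, but the unmethylated CpGs at the start were listed in the old libraries only. Gad1 was at 84.7%, 90.1% and 92.5% in young 1, 2 and 3 and at 82.7% and 85.8% in old 1 and 2, and the ages overlapped, as they did in Gad2, at 88.9% to 93.2%. Slc32a1, the gene with no common CpG, was at 26.9%, 23.3% and 17.2% in young 1, 2 and 3, on 253, 30 and 203 reads, and at 35.3% and 33.3% in old 1 and 2, on 139 and 198 reads. The old libraries were the higher ones, over sets of 6 to 44 CpGs that differ between libraries, so no comparison was made.

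Common CpGs give the same places in each library, and there Gphn was at 88.3%, 90.3% and 91.8% in young 1, 2 and 3 and at 90.9% and 89.5% in old 1 and 2, on 12850 to 17443 reads. The ages overlapped, with means of 90.1% ± 1.78 (SD, n = 3) and 90.2% ± 0.982 (SD, n = 2). Of 2702 gene regions with a span of at least 100 kb, 22.9% had a lower mean. The regions nearest to Gphn in all 5 libraries, by root mean square difference, were Gpr39 (0.678 points), Rabgap1 (0.740), Apex2 (0.981), Dennd4a (1.12) and Celsr1 (1.13). These levels weight each CpG by its reads, and so do the rank and the nearest regions. As a mean over CpGs the Gphn region was at 94.9% in the young and 95.4% in the old libraries.

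Most of the less methylated CpGs of Gphn lay in 1 short stretch. Of its 649 common CpGs 21 had a mean under 80%, and 15 of these were neighbours, from 78350907 to 78351162, a run of 256 bp lying 124.3 kb past the start. It falls within the gene, but whether in an intron or an exon was not analysed here. The run was found after the values were seen, as the longest row of neighbouring common CpGs under 80%. The tile that chose the gene and the tile before it (78350001 to 78351000) each hold part of it.

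Over these 15 CpGs methylation was 30.7%, 34.3% and 24.9% in young 1, 2 and 3 and 41.4% and 48.5% in old 1 and 2. Reads summed over the CpGs numbered 1007 to 2228 per library, and a read that covers several CpGs is counted at each. No single CpG of the run had more than 94 reads in young 3 or 199 in old 2. Both old libraries lay above all 3 young ones. The means were 29.95% ± 4.71 (SD, n = 3) in the young libraries and 44.9% ± 5.03 (SD, n = 2) in the old ones, 15.0 points apart. The first tile was at 29.2%, 36.8% and 26.5% in young and 39.6% and 50% in old libraries, and the other at 33.3%, 35.1% and 27.3% in young and 43.6% and 49.2% in old. Of the 321659 tiles of the genome, 0.425% had an old-minus-young difference at least as large as the lesser of these tiles. In 8.82% of tiles old lay above young without overlap. A difference in this place chose the gene, so these values are no support for an effect of age.

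Single CpGs of the run followed the same order. Old lay above young without overlap at 13 of the 15, which share reads, and at 5.08% of all common CpGs. Old lay below young without overlap at 0 of the 15 and at 6.32% of all common CpGs. A difference in this place chose the gene, so these counts are no support for an effect of age. All common CpGs also differ from the run in depth and level, with a median of 11 to 16 reads and means of 88.4% to 89.4% per library. The difference ran from 1.89 points to 24.6 points. The largest was at 78351155, with 49.1%, 44.7% and 44.0% in young 1, 2 and 3 and 74.5% and 66.7% in old 1 and 2, on 25 to 69 reads. Methylation was highest toward that end of the run. Within the run stood a CpG with almost none, 78351054, at 6.16%, 4.17% and 1.16% in young and 5.81% and 5.64% in old libraries, on 86 to 195 reads. A C-to-T variant reads as an unmethylated C in such data, and that was not tested here.

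The nearest common CpGs on either side of the run were highly methylated. The nearest common CpG before it, 78350411, was at 100% in all 5 libraries, on only 5 to 9 reads each. The nearest after it, 78351542, was at 92% to 100%, on 23 to 33 reads. The difference was seen on both strands. It was 15.3 points on the forward strand, with 26.2% ± 6.38 (SD, n = 3) in the young libraries and 41.5% ± 6.88 (SD, n = 2) in the old ones. On the reverse strand it was 13.6 points, with 38.9% ± 1.60 (SD, n = 3) and 52.5% ± 0.219 (SD, n = 2). In each library the reverse strand was more methylated than the forward one. The reverse strand had 301 to 779 reads per library, with 14 CpGs listed in all libraries. The forward strand had 706 to 1449 reads, with 15 such CpGs. The strands may therefore weight the CpGs of the run differently, and the gap between strands was not tested. The first 7 CpGs of the run differed by 14.5 points, and the last 7, which include 78351054, by 15.6 points. Without 78351054 the whole run differed by 16.3 points. All of these are parts of the reads at the place that chose the gene. Their likeness is therefore no support for an effect of age.

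**Figure D2:**
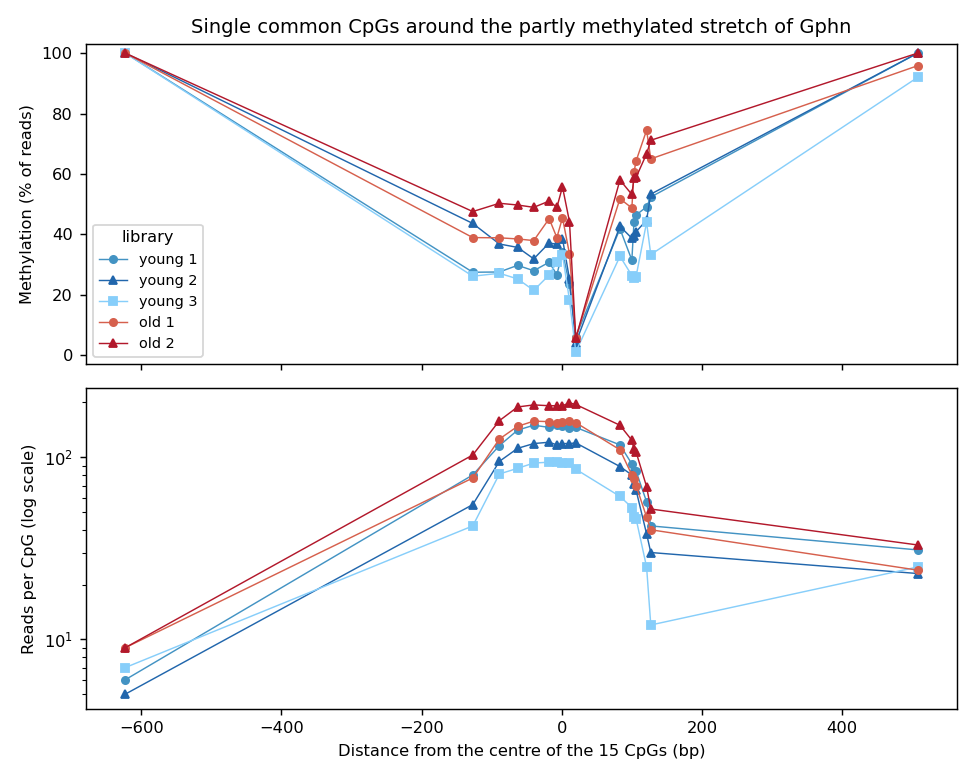
Methylation (upper panel, percent of reads) and reads per CpG (lower panel, log scale) of single common CpGs within 1000 bp of the centre of the 15-CpG run in Gphn, by distance in bp, with a line per library. The run shows as a trough of methylation and a peak of reads, with old 1 and old 2 above the young libraries at 13 of the 15 CpGs.

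Coverage changed at the same place. The 15 CpGs had a mean of 113, 90.1 and 67.1 reads in young 1, 2 and 3 and of 114 and 149 in old 1 and 2, while the median of the other Gphn CpGs was 13, 11, 18, 16 and 15. The run was thus read 8.71, 8.19 and 3.73 times as deeply as that median in the young libraries and 7.13 and 9.90 times in the old ones. Against the mean of the other CpGs it was read 6.10, 4.97 and 2.59 times as deeply in young 1, 2 and 3 and 4.89 and 7.32 times in old 1 and 2. The library with the lowest ratio, young 3, also had the lowest methylation there, and the one with the highest ratio, old 2, the highest. Between these ends the orders differed: old 1 had a lower ratio and more methylation than young 1 and 2.

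Scaled by that same median, unmethylated reads per CpG came to 6.04, 5.38 and 2.80 in young 1, 2 and 3 and to 4.18 and 5.10 in old 1 and 2, so the ages overlapped. Methylated reads came to 2.67, 2.81 and 0.930 in young and to 2.95 and 4.80 in old libraries, with both old ones above. Without young 3 the difference in percent was 12.4 points, and without old 2 it was 11.4. That of the first tile was 8.76 points without old 2, against 13.97 with all 5 libraries. Reads from near-identical copies elsewhere can add to a place read this deeply. Their part in the level and in the age difference was not tested.

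Other deeply read tiles of Gphn were highly methylated. The 7 outside the run with at least 50 reads per CpG were at 93.3% to 98.5%, and they differed between the ages by -0.346 to 1.80 points. The tiles of the run had 94.4 and 96.8 reads per CpG, more than 98.3% and 98.5% of all tiles, and means of 36.4% and 37.7%. Of 5332 tiles of the genome covered at least as deeply, 13.5% were under 80%, and of all tiles 11.9% were.

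**Figure D3:**
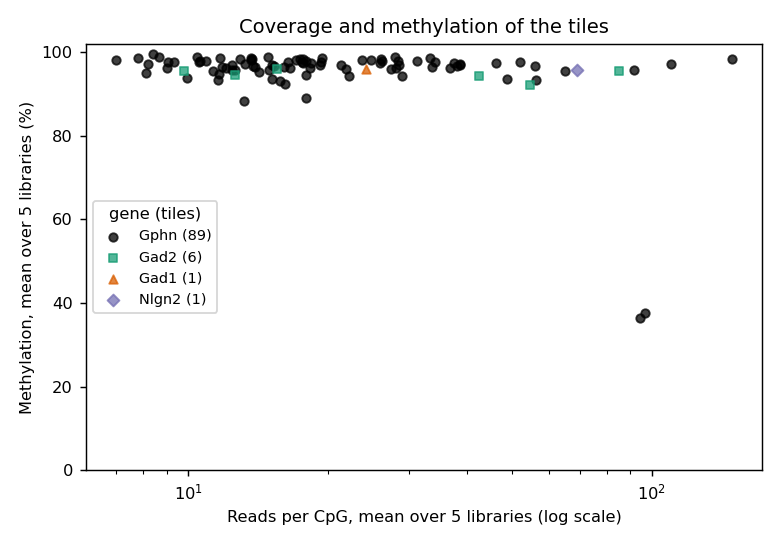
Methylation against reads per CpG (log scale) for the tiles of Gphn, Gad2, Gad1 and Nlgn2, each point a tile averaged over the 5 libraries. The 2 Gphn tiles of the run stand alone at 36.4% and 37.7%, while tiles of like coverage lie above 90%.

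The rest of Gphn was almost fully methylated at both ages. Without the run its 634 common CpGs were at 96.6%, 96.8% and 95.9% in young 1, 2 and 3 and at 96.7% in both old libraries, and the ages overlapped. The run held 5.77% to 14.8% of the reads of the region. The other 87 tiles had a median of 97.1% and ranged from 88.3% to 99.5%, with 85 of them at 90% or more, against a median of 94.5% over all tiles. Old was higher in 56 and lower in 31, with a median difference of 0.590 points (0.150 over all tiles, of which 52.5% were higher). Old lay above young without overlap in 13, which is 14.9% (8.82% of all tiles), and below in 5, which is 5.75% (8.14% of all tiles). Of the 634 CpGs old lay above young without overlap at 3.79% and below at 4.26%.

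Among these 87 tiles the largest positive old-minus-young difference was at 78500001 to 78501000, with 89.4%, 91.8% and 96.1% in young 1, 2 and 3 and 97.1% and 98.3% in old 1 and 2, on at least 47 reads. The largest negative difference was at 78442001 to 78443000, with 98.1%, 97.8% and 94.0% in young and 89.5% and 94.1% in old libraries, on 46 to 68 reads. The ages overlapped at that tile and did not at the first. In all, 84 of the 87 tiles differed by less than 5 points.

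The 6 other low CpGs of Gphn stood singly. At 78358710, past the run, methylation was 76.9%, 60% and 55.6% in young 1, 2 and 3 and 91.7% and 88.9% in old 1 and 2, on 5 to 18 reads, without overlap. At the 5 others the ages overlapped. No pattern of these CpGs was tested.

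**Figure D4:**
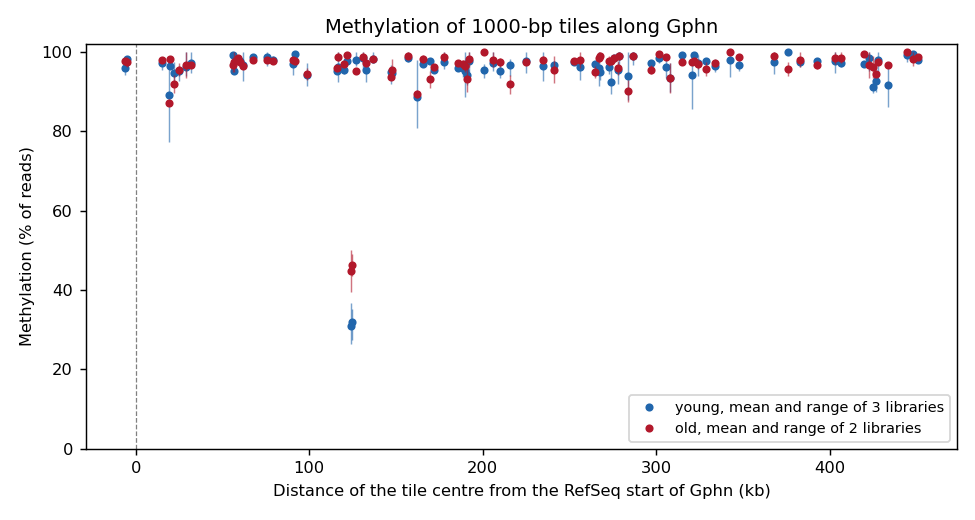
Methylation (percent of reads) of the 89 tiles of 1000 bp along Gphn by distance of their centre from the RefSeq start in kb, with the mean of each age as a point and the range of its libraries as a line. The tiles lie between 88.3% and 99.5% on average except the 2 of the run, at about 124 kb.

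At common CpGs, which are 6 of the 314 listed in Gad1 and 58 of the 357 in Gad2, the genes that make GABA overlapped between the ages. The Gad2 region was at 94.7% ± 0.875 (SD, n = 3) in the young libraries and 94.0% ± 0.299 (SD, n = 2) in the old ones, on 1578 to 2314 reads. Its 6 tiles were all above 90%. The largest positive difference was at 22649001 to 22650000, with 100%, 89.7% and 92% in young 1, 2 and 3 and 96.2% and 100% in old 1 and 2. The largest negative difference was at 22647001 to 22648000, with 100%, 96% and 89.3% in young and 91.7% and 95.7% in old libraries.
At both tiles the ages overlapped, on 25 to 56 reads per library. At 22658001 to 22659000, the lowest tile of Gad2, the young libraries were at 92.6%, 93.6% and 91.79% and the old ones at 91.1% and 91.76%. Young 3 and old 2 were thus nearly equal there. At 22662001 to 22663000 they were at 96.8%, 96.1% and 95.6% and at 95.3% and 94.3%. In both tiles old lay below young without overlap, with old-minus-young differences of -1.22 and -1.38 points, as 8.14% of all tiles did. The Gad1 region was at 96.3% ± 0.466 (SD, n = 3) and 95.7% ± 0.339 (SD, n = 2) over its 6 common CpGs. Its single tile (70599001 to 70600000), far from the start, was at 96.0%, 90.8% and 98.1% in young and 96.1% and 99.1% in old libraries.

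Nlgn2, the adhesion gene, was at 95.4% ± 1.31 (SD, n = 3) over its 10 common CpGs in the young libraries and at 94.1% ± 0.691 (SD, n = 2) in the old ones, and the ages overlapped. Its tile, 69830001 to 69831000, was at 97.6%, 95.4% and 95.4% in young 1, 2 and 3 and at 95.8% and 94.7% in old 1 and 2, and the ages overlapped. None of the 8 tiles of Gad1, Gad2 and Nlgn2 passed the test across all tiles (quasi-binomial model with limma-type moderation, adjusted p = 1 for each). None of the 3 gene regions passed it across all 23804 regions either (adjusted p = 1 in the same model). The share of features called was 0% of tiles and 0% of gene regions, so a count of 0 among these genes matches the background. Unadjusted p-values under 0.05 were reached by 2.45% of tiles and 1.51% of regions, and limma called 0 as well, with 13796 tiles and 849 regions at an unadjusted p under 0.05. No end of the 5 genes had 3 common CpGs, while of 11660 gene ends 8.05% lay higher and 7.62% lower in old sperm without overlap.

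Other genes of inhibitory transmission were read over the same kind of region, from lists written with earlier results of these data known. Of 17 measured GABA-A receptor subunit genes 0 passed in either direction (the 0% of all gene regions), 8 were higher and 9 lower in old sperm, and the median difference was -0.0232 points (0.0988 over all regions). Gabrp, a subunit found mostly outside the brain, was at 87.9% ± 1.33 (SD, n = 3) and 93.0% ± 2.78 (SD, n = 2), and Gabrr1, a rho subunit of the retina, at 93.4% ± 0.677 and 95.4% ± 1.95. The rho subunit gene Gabrr3 was at 86.2% ± 1.14 and 84.1% ± 1.39.
Glycine receptor genes numbered 5, none of which passed, with 3 higher and 2 lower and a median of 0.0420 points. Glrb, whose beta subunit binds gephyrin directly, was at 92.7% ± 2.89 (SD, n = 3) in the young libraries and 93.0% ± 0.418 (SD, n = 2) in the old ones. Glra4, with 3 common CpGs, was at 94.7% and 100%, and Glra3 and Glra2 had differences of -0.286 and -0.280 points.

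Of 16 scaffold and adhesion genes 0 passed, 9 were higher and 7 lower, and the median difference was 0.163 points. Mdga1, whose product binds neuroligin 2, was at 89.6% ± 2.29 (SD, n = 3) in the young libraries and 92.0% ± 4.64 (SD, n = 2) in the old ones. Shisa7, encoding a GABA-A receptor partner, was at 89.7% ± 3.83 and 87.1% ± 1.11, and Clptm1, a brake on receptor export, at 92.8% and 90.5%. Slitrk3, an adhesion gene of inhibitory synapses, stood apart in level, at 11.1% ± 5.87 and 10.3% ± 0.00980, the lowest of the 16. Its region held only 15 common CpGs. The 60 CpGs listed within 1000 bp of its start were at 2.25% on 1021 reads. Their part in the level of the region was not tested.

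Of 12 transport, breakdown and GABA-B receptor genes 0 passed, 5 were higher and 7 lower, with a median of -0.263 points. The glycine transporter gene Slc6a9 was at 94.3% ± 1.32 (SD, n = 3) and 88.8% ± 4.63 (SD, n = 2). Slc6a13 and Slc6a5 had the largest positive differences of this list, 1.05 and 0.264 points. Of 7 molybdenum cofactor genes, the other pathway of gephyrin, 0 passed, 4 were higher and 3 lower, with a median of 0.0334 points. Mtarc1, encoding an enzyme that uses the cofactor, was at 88.5% ± 2.52 and 93.7% ± 0.199, and Mocs1, which starts its synthesis, at 96.8% ± 0.949 and 99.1% ± 1.29. Xdh, encoding xanthine dehydrogenase, was at 96.0% ± 0.476 and 94.2% ± 0.618, and Aox1, encoding aldehyde oxidase, at 93.4% ± 2.20 and 92.3% ± 1.01.

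Old lay above young without overlap in 2 of 17 GABA-A receptor, 1 of 16 scaffold and 2 of 7 molybdenum cofactor regions. It did so in 0 of 5 glycine receptor and 0 of 12 transport regions, and in 7.57% of all regions. It lay below in 1 of 17 GABA-A receptor, 1 of 12 transport and 1 of 7 molybdenum cofactor regions. The same held for 0 of 5 glycine receptor and 0 of 16 scaffold regions, and for 6.62% of all regions.

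**Figure D5:**
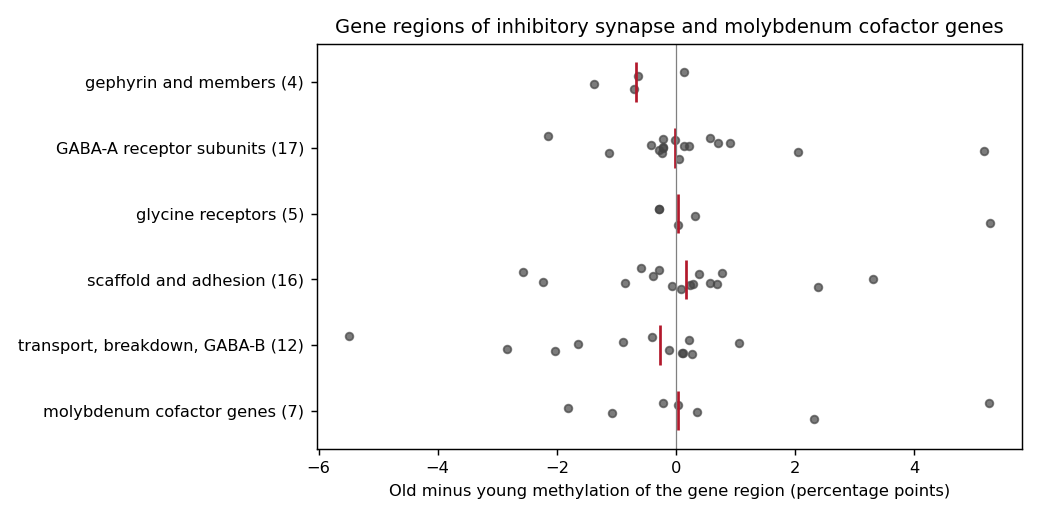
Old minus young methylation of gene regions in percentage points, by list, with a point per gene and a red bar at the median of each list; the number of measured genes is in brackets. The medians run from -0.672 points, for the 4 measured members, to 0.163 points, for the scaffold and adhesion genes.

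The starts of these genes ranged widely in level. Among starts with at least 20 reads, pooled over libraries, 6 of 13 GABA-A receptor subunit genes were under 10%, 2 of them with no methylated read, while Gabra6, a cerebellar subunit, was at 96.2%. In the scaffold and adhesion list 7 of 10 were under 10% and the highest, Lhfpl4, was at 68.0%. In the transport list 1 of 8 was under 10%, and Slc6a13 was at 88.2%. In the molybdenum cofactor list 3 of 6 were, and the highest, Aox1, was at 28.4%. Among glycine receptor genes 1 of 3 was, and the highest, Glra3, was at 37.8%. Across the genome 20.7% of 24309 such starts were under 10%. That share was 2.11% in promoters with at most 9 CG dinucleotides and 56.9% in those with at least 30. The lists were not matched for CG content.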

How the data were processed

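CpG methylation was read from 3 young and 2 old sperm libraries. The submitters' processing notes name mm10 as the build and list methylKit 1.4.0, Bismark 0.16.3 and Trim Galore 0.4.3, with no settings and no word on duplicate reads. The deposited files give, per the file headers, coverage as a count of reads per cytosine and strand and the percent of reads methylated (C) or not (T). The lowest coverage in each file was 5.

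Forward and reverse reads of each CpG were added, and CpGs listed in all 5 libraries on chromosomes 1 to 19, X and Y were kept. Levels are summed methylated reads over summed reads. A read that covers several CpGs is counted at each of them, so read counts over several CpGs exceed the number of separate reads. Promoters, starts and spans came from RefSeq (GRCm38.p6), where all 5 genes matched. Of CpGs listed within promoters 99.99% were CG in the RefSeq sequence. Tiles, gene regions and gene ends were fitted with a quasi-binomial logistic model, old against young, with Pearson dispersion moderated across features as in limma and not let under 1, and p-values were adjusted by Benjamini-Hochberg. Features were called at an adjusted p under 0.05 with a difference of at least 10 points. The dispersion prior was estimated from features whose expected binomial variance was at least 2 in every library, not from all features as first planned. The planned prior also called 0 tiles, with 9838 against 7879 at an unadjusted p under 0.05 in the quasi-binomial model. Alternatives covered a minimum of 10 reads, an upper limit at the 99.9th percentile of coverage, limma 3.58.1 (R 4.3.3) on log2 odds, tile and window widths, 5 CpGs per tile, the mean over CpGs, the replicate number and each library left out. The other prior, single strands and every listed CpG were added after seeing the data. Python 3.11.15 with scipy 1.17.1, pandas 2.3.3 and numpy 2.4.6 did the rest.

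Members and lists were chosen with earlier results of these data known. Tiles named were those under 50%, those with the largest positive and negative difference in each gene, and the Gphn tile that chose the gene, which the rule took by its p (not given, since it is no test here), with its neighbours and CpGs. Listed genes named were up to 2 regions with the largest positive and 2 with the largest negative difference, and Glrb, Slitrk3 and the lowest Gad2 tiles were added after their values were seen. Some listed genes that this rule names are not reported here.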

Additional observations from a re-analysis of the deposited data

How the results depend on the processing

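The count of called tiles, 0 as reported, was 0 under 9 of 13 alternatives. With 1 library left out it ranged from 0 to 117: 31 without young 2, 117 without young 3, 1 without old 2, and 0 without young 1 or old 1. None of the 8 tiles of Gad1, Gad2 and Nlgn2 was among these calls. With the replicate number as a block there were 178 called tiles, 5 called gene regions and 0 called gene ends. Without the block the counts were 0. The numbers do not pair the samples as far as the labels say, and deviations of same-numbered libraries correlated at 0.0103 and -0.0209 across tiles. Gene ends ranged from 0 to 4 calls, the 4 without young 3, and regions stayed at 0 in each. The regions of Gad1, Gad2 and Nlgn2 kept their direction and did not pass under any of 10 alternatives. With 1 library left out their differences ranged from -0.906 (without young 2) to -0.398 points (without old 1) in Gad1, from -1.21 (without young 3) to -0.441 (without young 2) in Gad2, and from -1.86 (without old 1) to -0.621 (without young 1) in Nlgn2. The difference of the 15-CpG run of Gphn ranged from 11.4 to 18.5 points over 11 alternatives, the lowest without old 2 and the highest without old 1. That of the whole Gphn region changed sign, to -0.793 without young 1 and -0.563 without old 1. Outside the run it lay between -0.0334 and 0.428 points. A fit with a single old library takes its spread from the young libraries. The cause of these changes was not tested. Depth limits the starts of the 5 genes, which had 25 to 190 reads over all libraries.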
